A study of Mus musculus with 27 samples.

Results

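Cbx2, Cbx6, Cbx7 and Cbx8 encode chromobox proteins of the Polycomb system, and their rows were picked by gene name from a table of 45706 genes of mouse liver. The values themselves guided the choice, so the levels and differences of these 4 genes are given as a description, with no test, and support nothing further. All 4 rows passed the filter on low values (at least 10 normalised counts in at least 3 libraries), which left 15932 genes tested.

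Polycomb repressive complexes keep genes silent. PRC2 trimethylates histone H3 (the mark H3K27me3), and canonical PRC1 docks on that mark through a chromobox subunit, such as CBX2, CBX6, CBX7 or CBX8. A canonical complex holds a single chromobox protein beside a RING ubiquitin ligase, a PCGF protein and a PHC protein, so the mix of CBX transcripts bears on which complexes a tissue can build. Variant PRC1 complexes hold RYBP or YAF2 in place of a chromobox protein. In mice, loss of Cbx7 is known to favour liver and lung tumours.

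RNA was sequenced from liver of mice labelled strain C57/BLN6, genotype WT, after 16 h without food. The fasted group had that fast alone and is not matched in time to the rest. Refed mice then got food for 30, 60, 120 or 240 min, and caged food mice spent the same times with food kept in a cage. Each of the 9 groups held 3 libraries from animals labelled as biological replicates, 27 in all, and every group shares the strain, the genotype and the prior fast. Age is not given in the labels used here. The p-values below set differences between groups against the spread of libraries within groups. That spread was pooled over all 9 groups and moderated across genes.

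The deposited values are normalised read counts rounded to whole numbers. They summed to between 40654573 and 50037562 per library, and the size of their steps put the depth at about 25600000 to 52400000 reads (median 47000000). At that depth the 4 genes rested on 198 to 1362 reads per library, a counting error of 2.71% to 7.11%. Replicate 3 of refed 240 min carries a caged food treatment label and replicate 1 of caged food 240 min a refed one, against their titles. The titles were followed. Cbx7 stood at 335 normalised counts in that refed library, beside 292 and 323 in its group's other libraries. It stood at 946 in that caged food library, beside 881 and 830. The values guided the choice of Cbx7, so they do not bear on which labels are right. Over all tested genes, 4303 had an adjusted p under 0.05 (limma) for refed against caged food at 240 min with the titles. With the treatment labels 1 did. In bulk liver, fewer cells of a type and less RNA per cell cannot be told apart.

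The genes sit in pairs on 2 chromosomes (GRCm38, GENCODE M21). Cbx2 (ENSMUSG00000025577) lies at chr11:119022962-119031270 on the plus strand, and Cbx8 (ENSMUSG00000025578) at chr11:119036305-119040969 on the minus strand, with 18.0 kb between their starts. Cbx6 (ENSMUSG00000089715) lies at chr15:79823896-79834688 and Cbx7 (ENSMUSG00000053411) at chr15:79915807-79971119, both on the minus strand, with 136 kb between their starts. Apobec3, read from the opposite strand, overlaps the Cbx7 gene model, and the strand setting used in counting is not given in the sources used here.

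The RefSeq promoter table (GRCm38.p6) held 3 of the 4 genes, and the 250 bases before each start are shown so that the start of Cbx7, whose level differed most between groups, can be read beside those of Cbx6 and Cbx8, whose levels varied least. Capitals mark the E-box CACGTG and the full cyclic AMP response element TGACGTCA. The stretches are Cbx8 chr11:119040914-119041163, Cbx6 chr15:79834334-79834583 and Cbx7 chr15:79932647-79932896, all minus strand, written 5′ to 3′. The RefSeq start used for Cbx7 lies inside its GENCODE gene model, downstream of that model's first start.
Cbx8: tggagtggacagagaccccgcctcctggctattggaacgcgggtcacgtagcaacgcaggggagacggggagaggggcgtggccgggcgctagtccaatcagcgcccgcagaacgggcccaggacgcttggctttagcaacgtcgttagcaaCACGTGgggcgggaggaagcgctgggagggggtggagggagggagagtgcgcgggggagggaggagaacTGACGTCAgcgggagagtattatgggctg
Cbx6: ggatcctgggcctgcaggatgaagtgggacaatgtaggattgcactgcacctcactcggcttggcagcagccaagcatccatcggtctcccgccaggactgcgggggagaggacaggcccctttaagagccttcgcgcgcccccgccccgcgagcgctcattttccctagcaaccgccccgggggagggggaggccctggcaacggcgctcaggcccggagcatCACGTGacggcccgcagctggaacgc
Cbx7: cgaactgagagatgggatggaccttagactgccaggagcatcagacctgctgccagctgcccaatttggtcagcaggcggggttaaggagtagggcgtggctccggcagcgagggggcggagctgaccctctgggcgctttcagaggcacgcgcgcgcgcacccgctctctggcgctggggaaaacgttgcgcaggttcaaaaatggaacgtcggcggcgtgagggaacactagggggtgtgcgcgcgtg

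Both strands of each 300-base window (250 before and 50 after the start) were searched for TGACGTCA, its core TGACG, the AP-1 element TGANTCA, the E-box CACGTG, the FOXO element GTAAACA, the heat shock element GAANNTTC and the GC box GGGCGG. The full TGACGTCA stood in Cbx8 at position -29 and in 1.79% of all 32851 promoters of that length. The E-box stood in Cbx8 at -98 and in Cbx6 at -26, against 7.15% of all promoters. In Cbx6 the core TGACG (20.8% of promoters) began at -22 and overlaps the end of its E-box, and in Cbx8 both strands of the core lie inside the full element. In Cbx7 the core began at 22, after the start. GC boxes (35.7% of promoters) were found in all 3 windows, at -92 in Cbx8, at -108, -77 and 22 in Cbx6 and at -136 in Cbx7. The windows held 24 (Cbx8), 31 (Cbx6) and 33 (Cbx7) CpG dinucleotides, against a median of 7 over all promoters. None of the 3 held the AP-1, FOXO or heat shock letters. A match is a run of letters and not a shown binding site.

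Cbx7, a chromobox protein with strong affinity for H3K27me3, had its lowest levels late after refeeding. Fasted livers held 823, 780 and 887 normalised counts. Refed livers held 794, 689 and 912 at 30 min, then 748, 628 and 638 at 60 min. They held 545, 472 and 430 at 120 min and 292, 323 and 335 at 240 min. Every refed library at 60, 120 and 240 min was below every fasted library, and every one at 240 min was below every one at 120 min.

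With caged food, Cbx7 stood at 1096, 819 and 971 at 30 min and at 661, 681 and 635 at 60 min. It stood at 789, 778 and 861 at 120 min and 946, 881 and 830 at 240 min. The caged food libraries thus lay below the fasted range at 60 min only, and overlapped it at the other 3 times. At 60 min the refed and caged food libraries overlapped, and from 120 min on they did not. The log2 difference of refed from fasted (on log2 of the value plus 1, with the model's SE of 0.11 for every Cbx7 difference) was -0.06 at 30 min, -0.31 at 60 min, -0.79 at 120 min and -1.39 at 240 min. Caged food against fasted, which shares the fasted libraries, gave 0.20, -0.33, -0.04 and 0.09. Refed against caged food gave -0.27, 0.02, -0.75 and -1.48, so at 240 min the refed level was 0.358 of the caged food level. With the 2 libraries of conflicting labels grouped by treatment label, that last difference became -0.48.

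Cbx2, which can compact nucleosomes, differed earlier. Fasted livers held 795, 970 and 1061 normalised counts. Refed livers held 673, 508 and 581 at 30 min and 547, 434 and 427 at 60 min. They held 704, 597 and 641 at 120 min and 470, 536 and 530 at 240 min. All 12 refed libraries lay below the lowest fasted library, with no steady order by time.

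The caged food libraries of Cbx2 began low and ended high. They stood at 587, 718 and 640 at 30 min and at 823, 652 and 728 at 60 min. They stood at 1186, 1146 and 978 at 120 min and 1328, 1005 and 997 at 240 min. Only the 30 min libraries were all below the fasted range, and at that time refed and caged food livers overlapped. The log2 differences of refed from fasted were -0.68, -1.003, -0.53 and -0.87 from 30 to 240 min (SE 0.14). Those of caged food were -0.53, -0.36, 0.23 and 0.23, against the same fasted libraries. Refed against caged food gave -0.15, -0.65, -0.77 and -1.10, and the last 3 times had no overlap between the groups. Grouping by treatment label left -0.22 at 240 min.

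Cbx6, among the less studied of the family, varied less. It stood at 365, 406 and 401 normalised counts in fasted livers, 294, 319 and 334 in refed 240 min livers and 424, 394 and 456 in caged food 240 min livers. The refed 240 min libraries were below both other groups. Elsewhere its libraries ranged from 301 to 574 and every other group overlapped the fasted one. The 574 was 1 caged food 30 min library (replicate 1), beside 382 and 376. Without it the log2 difference of caged food 30 min from fasted went from 0.16 to -0.04. The log2 difference of refed from fasted at 240 min was -0.31, and of refed from caged food -0.43 (SE 0.16).

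Cbx8, a partner of the elongation factors AF9 and ENL, did not follow the other 3. Fasted livers held 302, 308 and 355 normalised counts, the lowest group mean of the 9. Refed livers held 411, 387 and 360 at 30 min and 450, 425 and 375 at 120 min, all above the fasted range. Caged food livers at 120 min, at 413, 399 and 416, were above it as well. At 240 min the refed libraries (389, 388 and 350) overlapped the fasted ones and the caged food ones (331, 372 and 334). The log2 differences of refed from fasted were 0.26, 0.12, 0.37 and 0.23, and those of caged food 0.03, 0.04, 0.35 and 0.11 (SE 0.13). The 60 min value of caged food rests on replicate 2, at 245 beside 409 and 360. Without that library it was 0.26.

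**Figure D1:**
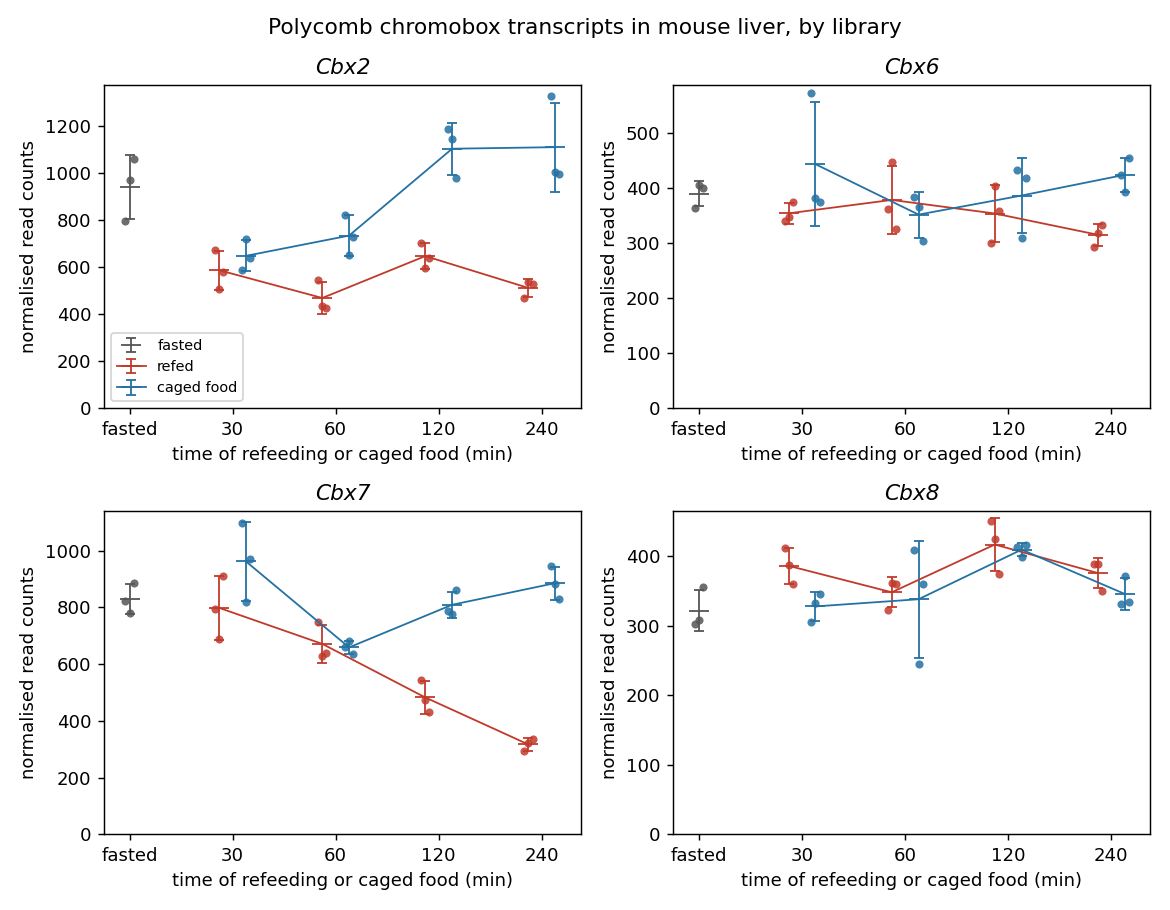
Normalised read counts (vertical axes, from 0) of Cbx2, Cbx6, Cbx7 and Cbx8 by minutes of refeeding or caged food, with fasted livers at the left. Points are libraries, and bars are the mean ± SD of 3. Refed Cbx7 falls away to 292 to 335 at 240 min, refed Cbx2 is low from 30 min on, and Cbx8 stays between 245 and 450 in all 27 libraries.

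Ordered by group mean, the levels of Cbx7 ran from 962 ± 139 normalised counts (SD, n = 3) in caged food 30 min livers to 317 ± 22.2 in refed 240 min livers. Of its 8 steps between neighbours in that order, the last 2 had no overlap: from caged food 60 min (659 ± 23.1) to refed 120 min (482 ± 58.2), and from there to refed 240 min. Cbx2 ran from 1110 ± 189 in caged food 240 min livers to 469 ± 67.4 in refed 60 min livers. Cbx6 ran from 444 ± 113 (caged food 30 min) to 316 ± 20.2 (refed 240 min), and Cbx8 from 417 ± 38.2 (refed 120 min) to 322 ± 29.0 (fasted). In these 3 genes every pair of neighbours in the order overlapped. The highest library exceeded the lowest 3.75-fold for Cbx7, 3.11-fold for Cbx2, 1.95-fold for Cbx6 and 1.84-fold for Cbx8.

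The number of chosen genes past adjusted p = 0.05 in the limma fit is set beside the share of all tested genes called lower, and nothing is read from it, since the values guided the choice. Refed against fasted had 1 of 4 at 30 min (Cbx2, all genes 0.326%) and 1 at 60 min (Cbx2, 3.75%). It had 2 at 120 min (Cbx2 and Cbx7, 6.13%) and 2 at 240 min (the same pair, 11.4%). Refed against caged food had 0 at 30 min (0.0690%), 1 at 60 min (Cbx2, 4.18%), 2 at 120 min (Cbx2 and Cbx7, 5.30%) and 3 at 240 min (Cbx2, Cbx6 and Cbx7, 12.4%). With the 2 libraries grouped by treatment label, 0 of the 4 were called at 240 min in either comparison. Caged food against fasted had 0 at each time. The share of all genes called lower there was 0% at 30 min, 0.0816% at 60 min, 0.0251% at 120 min and 0% at 240 min. At an unadjusted p under 0.05 the chosen genes numbered 1, 2, 1 and 0 in those 4 comparisons. Of all 15932 tested genes, 1123, 1569, 1226 and 752 had such a p. None of the 4 genes was called higher in any of the 12 comparisons. The share of all genes called higher at 30, 60, 120 and 240 min was 1.31%, 7.26%, 7.95% and 12.9% for refed against fasted. It was 0.0126%, 0.138%, 0.0126% and 0% for caged food against fasted, and 0.207%, 6.73%, 5.98% and 14.6% for refed against caged food.

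Groups without overlap were common in the whole table. All 3 refed libraries lay below all 3 fasted ones for 1 of the 4 genes at 30 min, against 10.1% of tested genes, and for 2 at 60 min (12.6%). They did so for 2 at 120 min (17.8%) and 3 at 240 min (21.0%). Against caged food the counts were 0 at 30 min (4.52%), 1 at 60 min (9.67%), 2 at 120 min (14.1%) and 3 at 240 min (20.4%). The caged food libraries lay below the fasted ones for 1 gene at 30 min (6.69%) and 1 at 60 min (6.95%), and for none at 120 min (7.66%) or 240 min (7.16%). In the other direction, Cbx8 was the only member whose groups parted. All its refed libraries lay above the fasted ones at 30 min (11.7% of tested genes) and 120 min (18.2%), not at 60 min (15.1%) or 240 min (22.2%). Its caged food libraries did so at 120 min (8.44%), not at 30 min (6.04%), 60 min (7.73%) or 240 min (6.62%). Its refed libraries lay above the caged food ones at 30 min (7.22%), not at 60 min (12.2%), 120 min (15.6%) or 240 min (21.3%).

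Marker lists of liver cell types were read beside these levels, each count with the share of all tested genes called in that direction. Of 8 stellate cell markers 4 fell in refed 240 min against fasted livers (11.4% of all genes), and their summed level was 16798 to 21411 normalised counts against 24236 to 25735. Of 8 endothelial and 8 hepatocyte markers 1 each fell, near the share of all genes. The endothelial markers summed to 17522 to 17796 against 18802 to 22031. Hepatocyte markers summed to 3819264 to 4729139 in refed 240 min and 4681669 to 5364523 in fasted livers. Against caged food at 240 min, 3 of 8 endothelial, 2 of 8 hepatocyte and 1 of 8 stellate markers were lower (12.4% of all genes), and 2 of 5 tested cholangiocyte markers were higher (14.6%). At 60 min, where Cbx2 was lowest, 2 of 5 B cell markers were lower in refed than in fasted livers (3.75%). At 30 min of refeeding 3 of 9 tested proliferation markers rose (1.31%), and the list summed to 371 to 1243 normalised counts against 245 to 385 in fasted livers. Caged food 30 min livers summed to 343 to 652, with a median log2 difference from fasted of 0.96 and 0 of 9 called higher (0.0126%). Refed against caged food at 30 min called 0 of 9 higher (0.207%). The part of these markers in the chromobox levels was not tested. Hepatocyte markers held by far the highest sums, as the liver label implies, and every listed marker gene of the stellate, endothelial and B cell lists was found in the table.

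Divided by the length of the principal transcript (3807 bases for Cbx2, 5806 for Cbx6, 3388 for Cbx7 and 3580 for Cbx8), the 4 genes can be set side by side. All annotated exons together span 4257 bases for Cbx2, 10609 for Cbx6, 6487 for Cbx7 and 3675 for Cbx8. The levels, shares and ratios between genes below depend on the length chosen, and the exon lengths were not used. By principal transcript, Cbx2 (247 normalised counts per kb) and Cbx7 (245) stood close together in fasted livers, above Cbx8 (89.9) and Cbx6 (67.3). In refed 240 min livers the order was Cbx2 (134), Cbx8 (105), Cbx7 (93.5) and Cbx6 (54.4). Cbx7 thus went from 37.8% ± 2.44 (SD, n = 3) of the summed level of the 4 genes in fasted livers to 24.1% ± 0.914 in refed 240 min livers, and Cbx8 from 13.8% ± 0.358 to 27.1% ± 2.30. In caged food 240 min livers the levels were 292 for Cbx2, 261 for Cbx7, 96.6 for Cbx8 and 73.1 for Cbx6. These shares are descriptions of the values already given.

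The summed per-length level of the 4 genes was 650 ± 55.4 normalised counts per kb in fasted, 387 ± 16.2 in refed 240 min and 723 ± 62.0 in caged food 240 min livers. The 3 refed 240 min sums (369 to 399) lay below those of the caged food 240 min and fasted libraries. Within a library, the per-length ratio of Cbx7 to Cbx8 was 2.73 ± 0.129 in fasted livers. After refeeding it ranged from 1.88 to 2.68 at 30 min, and was 2.05 ± 0.342, 1.22 ± 0.0538 and 0.895 ± 0.110 at 60, 120 and 240 min. With caged food it was 3.12 ± 0.611, 2.17 ± 0.669, 2.09 ± 0.0877 and 2.72 ± 0.270. From 120 min on, the refed and caged food ratios did not overlap.

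**Figure D2:**
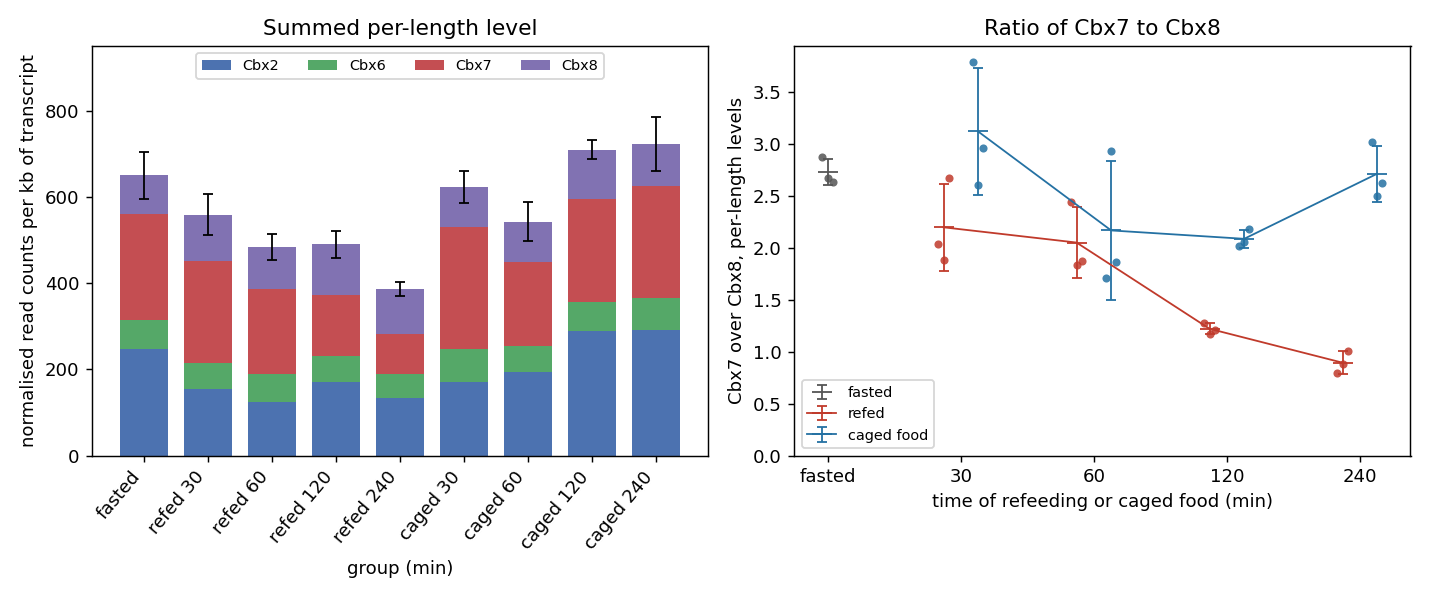
Left, stacked mean normalised read counts per kb of transcript for the 4 chromobox genes in each of the 9 groups. Right, the ratio of the per-length level of Cbx7 to that of Cbx8 in each library, with mean ± SD. The stack is lowest in refed 240 min livers (387 against 650 in fasted ones), where the ratio is 0.895.

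The rest of the Polycomb system was taken from a list of 58 genes, with HP1 and eraser genes, of which 57 were in the table and 55 tested (Scml2, Epop and Asxl3 were not). Beside each count stands the share of all tested genes called in that direction. Refed against fasted, 1 rose at 30 min (1.31%) and 0 fell (0.326%). At 60 min 8 rose (7.26%) and 1 fell (3.75%), at 120 min 7 rose (7.95%) and 3 fell (6.13%), and at 240 min 12 rose (12.9%) and 3 fell (11.4%). Refed against caged food called 0 at 30 min, with 6 list genes at an unadjusted p under 0.05 (1199 of all 15932 tested genes). It called 9 higher (6.73%) and 1 lower (4.18%) at 60 min, 4 higher (5.98%) and 5 lower (5.30%) at 120 min and 13 higher (14.6%) and 4 lower (12.4%) at 240 min. Caged food against fasted called 0 list genes at 30, 60, 120 and 240 min, with 3, 0, 9 and 3 at an unadjusted p under 0.05. Of all 15932 tested genes, 1123, 1569, 1226 and 752 had such a p. With the 2 libraries of conflicting labels grouped by treatment label, 0 list genes were called at 240 min. The median log2 difference of the list at 240 min was 0.06 for refed against fasted and 0.01 for refed against caged food, near the 0.00 of all genes.

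Of the RING ligases that put ubiquitin on histone H2A, Rnf2 changed direction. It stood at 794, 707 and 712 normalised counts in fasted livers, 919, 976 and 961 at 30 min of refeeding and 622, 641 and 576 at 120 min. All 30 min libraries were above and all 120 min libraries below the fasted ones. Rnf2 rose by 0.37 ± 0.08 (log2, SE) at 30 min (limma, adjusted p = 0.00982) and fell by 0.27 ± 0.08 at 120 min (adjusted p = 0.0198). Each call was lost in 3 of 14 settings: the first without fasted replicate 2 or 3 or refed 30 min replicate 2, the second without fasted replicate 1 or refed 120 min replicate 3 and in a fit of the 2 groups alone. Ring1 was 0.32 ± 0.08 higher in refed than caged food livers at 240 min (adjusted p = 0.00569).

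Among the PCGF subunits, Bmi1 was higher in refed than caged food livers at 240 min by 0.27 ± 0.07 (adjusted p = 0.00776), and this was lost without refed 240 min replicate 1. Pcgf5, of variant complexes, was lower there by 0.49 ± 0.12 (adjusted p = 0.00495). Pcgf6 was called higher there, a call lost in 10 of 14 settings. Pcgf2 was lower in refed 240 min than fasted livers by 0.60 ± 0.17 (adjusted p = 0.00964), again not without refed 240 min replicate 1. The PHC subunit gene Phc3 rose at 60 min of refeeding by 0.43 ± 0.08 (adjusted p = 0.0011), and Phc2 was 0.29 ± 0.08 higher in refed than caged food livers at 240 min (adjusted p = 0.00579). Phc1 was called lower at 240 min against fasted livers (-0.46 ± 0.15), a call lost in 8 of 14 settings, including each of the 6 that leave out a library.

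Of 10 variant PRC1 genes, 3 rose and 0 fell at 240 min of refeeding against fasted livers (12.9% and 11.4% of all genes). Against caged food 2 were higher and 1 lower (14.6% and 12.4%). E2f6, a repressor of the E2F family, stood at 509, 515 and 511 normalised counts in fasted, 913, 813 and 760 in refed 240 min and 597, 610 and 570 in caged food 240 min livers. The refed libraries were above all of the others. E2f6 rose by 0.69 ± 0.10 against fasted livers (adjusted p = 3.14e-05). Rybp, which takes the chromobox place, was 0.51 ± 0.13 higher in refed than caged food livers at 240 min (adjusted p = 0.00388). The corepressor Bcor rose most at 120 min, to 2225, 1940 and 1907 from 1340, 1238 and 1430 in fasted livers (0.60 ± 0.10, adjusted p = 0.000354). Caged food 120 min livers held 1525, 1812 and 2018, also above every fasted library (0.41 ± 0.10, adjusted p = 0.206), and refed against caged food was not called there (0.19 ± 0.10, adjusted p = 0.288). Mga was lower in refed than caged food livers at 240 min (-0.39 ± 0.12, adjusted p = 0.0203), which was lost in 4 of 14 settings, 3 of which leave out refed 240 min replicate 1 or 2 or caged food 240 min replicate 3. Its fasted libraries (1380 to 1657) overlapped the refed 240 min ones (1411 to 1685) and lay below the caged food 240 min ones (1940 to 2071).

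PRC2, the writer of the mark that the chromobox proteins read, had 1 of 6 core genes called at 240 min of refeeding against fasted livers and 2 of 6 against caged food, all higher. Of all genes 12.9% and 14.6% were called higher in these comparisons, so counts this small are not a result about the complex. Eed, its reader subunit, was 0.42 ± 0.09 higher in refed than caged food livers at 240 min (adjusted p = 0.00127). Rbbp4 was called there as well (0.23 ± 0.08, adjusted p = 0.0359), which was lost in 8 of 14 settings, among them without refed or caged food 240 min replicate 1 or 2. Suz12 was called in no comparison, and its log2 differences lay between -0.16 and 0.17. Of the accessory genes, Jarid2 stood at 864, 1027 and 894 normalised counts in refed 120 min and 585, 629 and 689 in caged food 120 min livers (0.55 ± 0.10, adjusted p = 0.000631). Its fasted libraries (770 to 869) overlapped the refed 120 min ones and lay above all the caged food 120 min ones. Mtf2 rose at 60 min of refeeding by 0.45 ± 0.11 (adjusted p = 0.00856), not without refed 60 min replicate 3. Phf19 was called nowhere (-0.55 to 0.28).

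The sharpest contrast within the list lay in FOXK1 and FOXK2, paralogous forkhead proteins that bind the deubiquitinase BAP1. Foxk1 stood at 1553, 1716 and 1898 normalised counts in fasted, 1116, 1160 and 1190 in refed 240 min and 2023, 1849 and 1915 in caged food 240 min livers. Foxk2 stood at 870, 754 and 778, at 1391, 1372 and 1140 and at 784, 857 and 856 in the same groups. The refed 240 min libraries were the lowest of the 3 groups for Foxk1 and the highest for Foxk2. Refed against caged food, Foxk1 was lower by 0.74 ± 0.09 (adjusted p = 1.38e-06) and Foxk2 higher by 0.64 ± 0.11 (adjusted p = 8.23e-05). At 60 min of refeeding Foxk1 fell by 0.58 ± 0.09 (adjusted p = 7.62e-05) and Foxk2 rose by 0.74 ± 0.11 (adjusted p = 4.36e-05) against fasted livers. The opposite calls of the pair at 60 and 240 min were lost in no setting but the grouping by treatment label, where Foxk1 lost all and Foxk2 lost those at 240 min.

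Kdm1b, a histone demethylase listed with the BAP1 genes, was 0.37 ± 0.08 higher in refed than caged food livers at 240 min (adjusted p = 0.00165), and Hcfc1 was 0.52 ± 0.10 higher (adjusted p = 0.000528). Asxl1, the cofactor of BAP1, was 0.48 ± 0.09 lower in refed than caged food livers at 120 min (adjusted p = 0.000595). Bap1 itself was called for refed against caged food at 120 and 240 min, calls lost in 8 and 7 of 14 settings. Ogt was called at 240 min of refeeding against fasted livers (lost in 4 of 14) and against caged food (lost in 2). Of the 10 tested BAP1 genes, 4 were higher and 2 lower in refed than caged food livers at 240 min (14.6% and 12.4% of all genes). The eraser Usp16, which removes ubiquitin from histone H2A, stood at 1707, 1559 and 1643 normalised counts in fasted livers and at 2081, 2044 and 2353 at 60 min of refeeding. It rose by 0.40 ± 0.07 at 60 min (adjusted p = 0.000376), 0.45 ± 0.07 at 120 min (adjusted p = 8.71e-05) and 0.34 ± 0.07 at 240 min (adjusted p = 0.000781). Kdm6b, an H3K27 demethylase, was called nowhere, with 0.52 ± 0.15 at 30 min of refeeding (adjusted p = 0.0881). Kdm6a was called once, at 120 min of refeeding (0.23 ± 0.08), which was lost in 10 of 14 settings, including each that leaves out a library.

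Of the HP1 chromobox genes, whose proteins read H3K9 methylation, Cbx1 and Cbx5 were called in no comparison. Their log2 differences lay between -0.01 and 0.18 and between -0.18 and 0.27. Cbx3 was called once, lower in refed than caged food livers at 120 min (-0.45 ± 0.14), and that was lost in 10 of 14 settings, including each that leaves out a library. Of the DNA-binding PhoRC genes, Sfmbt1 was called lower once (refed 120 min against fasted, -0.26 ± 0.08), lost in 7 of 14 settings with each library left out among them. Yy1 (-0.22 to 0.17) and Sfmbt2 (-0.71 to 0.37) were called nowhere.

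**Figure D3:**
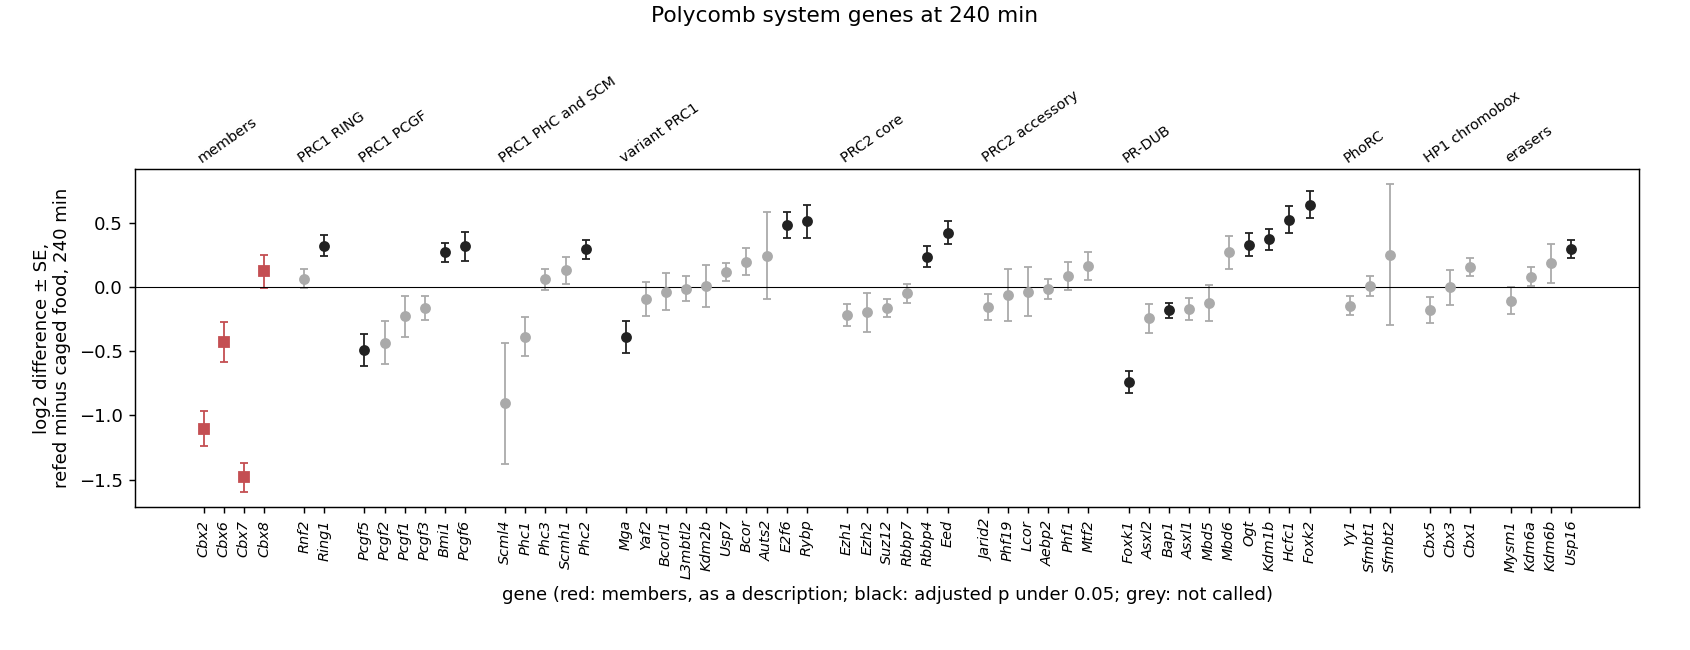
Log2 difference ± SE of refed minus caged food livers at 240 min (vertical axis) for the 4 chosen chromobox genes (red squares) and 55 other genes of the list, by complex. Black points passed adjusted p = 0.05 and grey ones did not. Cbx7 (-1.48) and Cbx2 (-1.10) lie lowest, and Foxk1 (-0.74) and Foxk2 (0.64) lie on opposite sides of 0.

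Genes around the chromosome 15 loci were read for their own calls. Within 100 kb of the Cbx6 and Cbx7 starts, 6 other tested genes were found. Sun2, which encodes a nuclear envelope protein, starts 92.2 kb from Cbx6 and 229 kb from Cbx7 on chromosome 15. It stood at 6350, 6609 and 6628 normalised counts in fasted, 2288, 3317 and 2732 in refed 240 min and 6712, 5796 and 6436 in caged food 240 min livers. No refed 240 min library reached the range of the other groups named. Sun2 fell by 0.79 ± 0.12 (log2, SE) at 120 min (limma, adjusted p = 0.000122) and fell by 1.25 ± 0.12 at 240 min of refeeding (adjusted p = 1.66e-07). Of 14 settings only the grouping by treatment label lost these calls (adjusted p = 0.0963 and 0.181).

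The other neighbours had lower levels than Sun2. Gm16576 is annotated as a long noncoding RNA of a bidirectional promoter. It starts 92.0 kb from Cbx6, next to the Sun2 start (92.2 kb) and on the opposite strand. Gm16576 stood at 65.3 ± 9.02 (SD, n = 3) normalised counts in fasted, 40.7 ± 2.52 in refed 240 min and 86.7 ± 18.2 in caged food 240 min livers. It was lower in refed than caged food 240 min livers (-1.06 ± 0.19, adjusted p = 0.00024). Against fasted livers it fell by 0.66 ± 0.19 (adjusted p = 0.0136), a call lost without fasted replicate 3 or refed 240 min replicate 1 and in the grouping by treatment label, which also lost the call against caged food. Nptxr was also called lower in refed than caged food 240 min livers (-1.21 ± 0.35, adjusted p = 0.0124), at 13, 16 and 29 normalised counts against 24, 40 and 86. That call was lost in 4 of 14 settings. Among them were leaving out refed 240 min replicate 1 or caged food 240 min replicate 3, and the grouping by treatment label. Dnal4, Apobec3 and Pdgfb were called in no comparison. The log2 differences of refed 240 min from fasted were -0.16 ± 0.10 for Dnal4, -0.49 ± 0.23 for Apobec3 and -0.06 ± 0.23 for Pdgfb, which starts 43.9 kb from Cbx7.

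**Figure D4:**
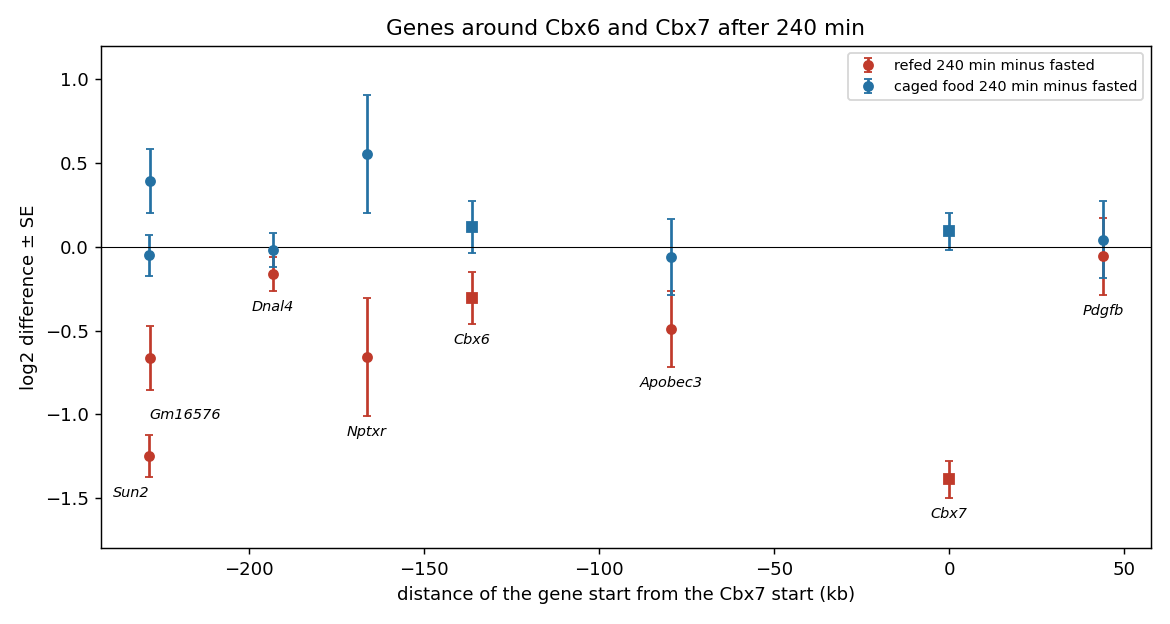
Log2 difference ± SE from fasted livers (vertical axis) at 240 min of refeeding (red) or caged food (blue), by distance of each gene's start from the Cbx7 start in kb. Squares are Cbx6 and Cbx7, circles the other tested genes. Refed Cbx7 (-1.39) and Sun2 (-1.25) lie lowest, with Gm16576 (-0.66), Nptxr (-0.66), Apobec3 (-0.49), Cbx6 (-0.31) and Dnal4 (-0.16) between them along the chromosome.

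Likeness of pattern was measured as Pearson's r over the 9 group means of log2 values, among 11180 tested genes. The 9 points share the authors' scaling, and no p is given. Cbx7 was most like Cd300lg (r = 0.986), an endothelial surface receptor, then Dmwd (0.985), Wdr90 (0.982), Tspan12 (0.981) and Mllt6 (0.980). Sun2 had r = 0.947 with Cbx7, a pair further apart than the distance used to name neighbours. Of the ranked genes, 70 had a higher r with Cbx7, Cbx7 itself counted among them. The tested neighbours of Cbx7, Apobec3 and Pdgfb, had r = 0.689 and 0.208 with it. With Cbx6, its neighbour, Sun2 had r = 0.726. The other tested neighbours of Cbx6 had 0.740 (Gm16576), 0.795 (Dnal4), 0.872 (Nptxr) and 0.467 (Apobec3) with it. Cbx2 was most like Zbtb48 (0.986), a telomere-binding zinc finger protein, then Tm7sf3 (0.965), Fam160b1 (0.953), Exosc5 (0.951) and Tceanc2 (0.950).

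Cbx6 was most like Adcyap1r1 (0.959), the receptor of the peptide PACAP, then Pde5a (0.936), Ear2 (0.935), Cdc25b (0.924) and Lrrcc1 (0.922). Apart from Lrrcc1, their highest group means were no more than 134 normalised counts. Caged food 30 min replicate 1, which stands apart, is high in this match: Adcyap1r1 stood at 237 there beside 107 and 59, and Cbx6 at 574 beside 382 and 376. Without that library r was 0.950 for Adcyap1r1, 0.912 for Pde5a, 0.859 for Ear2, 0.766 for Cdc25b and 0.808 for Lrrcc1, and only Adcyap1r1 stayed among the 5 most alike. Cbx8 had weaker matches, led by Sall1 (0.875), Helz (0.870), Ntmt1 (0.866), Ptpn9 (0.863) and Taf11 (0.863). Without that library Helz fell to 0.724, and only Sall1 and Ntmt1 stayed among the 5 most like Cbx8. Exosc5 then left the 5 most like Cbx2, and Mllt6 the 5 most like Cbx7. Among the chromobox genes themselves, Cbx6 and Cbx7 were closest (r = 0.858, and 0.840 without that library), and Cbx2 and Cbx7 less so (0.533). Cbx2 and Cbx8, whose starts are 18.0 kb apart, had r = -0.05, and Cbx7 and Cbx8 had r = -0.41.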

How the data were processed

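Liver mRNA was sequenced from stranded TruSeq libraries, per the labels' protocols. Reads were aligned with STAR 2.4.0a and counted with featureCounts 1.4.5-p1 of Subread on mm10/GRCm38, per the submitters' processing notes. The authors deposited normalised counts rounded to whole numbers, treated here as a score because the scaling is not given in the sources used here. Raw counts were not used. Depth was estimated from the steps between low values (1 read was worth 0.775 to 1.69 normalised counts).

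log2(value + 1) of 15932 genes with at least 10 in at least 3 libraries was fitted with limma 3.58.1 (R 4.3.3, trended variance) on 9 group means of all 27 libraries. Each of the 12 comparisons was adjusted by Benjamini-Hochberg over all genes tested, with calls at 0.05. The fit was also run on simulated data with the same dispersion for every gene and no libraries standing apart. The real libraries differ in both, and nothing here rests on that run. Gene positions came from GENCODE M21 (98.8% of genes matched) and promoters from RefSeq. Figures used matplotlib 3.10.9.

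The members and gene lists were chosen with earlier results of these data known. The named genes were the members, list genes called in a comparison and up to 3 per list with the lowest F test p. Neighbours within 100 kb of Cbx6 and Cbx7 and the 5 most alike genes per member were named too. Not every call of a list gene is given. One gene of the group is not reported here. Alternatives were a pseudocount of 5, no filter, quantile normalisation, a replicate block, only the groups compared, each library left out, and 3 other choices of libraries. Likeness without caged food 30 min replicate 1 was added after seeing the data.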

Additional observations from a re-analysis of the deposited data

Results flagged for a closer look

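Each gene here is from the Polycomb list, and was picked because every library of 1 group lay above and every library of another below all fasted libraries. The value is the log2 difference between those 2 groups. Picking the genes this way already sets those 2 groups apart, so each difference is a description, with no p beside it, and was not tested as a pattern.

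At the same time, Foxk2 at 120 min was above with refeeding and below with caged food, 0.72 apart. Asxl1 at 120 min was above with caged food and below with refeeding, 0.48 apart. At 240 min Hcfc1 (0.52 apart) and Phc2 (0.29 apart) were above with refeeding and below with caged food, and Pcgf5 was the other way round (0.49 apart).

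Between times, refed Rnf2 was above fasted at 30 and 60 min and below at 120 min (0.64 and 0.57 apart). Refed Bcorl1 was above at 30 min and below at 120 min (0.81 apart). Caged food Ezh1 was above at 120 min and below at 60 min (0.19 apart).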

How the results depend on the processing

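The log2 differences of the 4 chromobox genes kept within 1 residual SD of the fit from their value in 657 of 672 cases. The 12 called ones kept their direction in all 14 alternatives each. These genes were chosen with their values known, and most alternatives share nearly all libraries. Their steadiness is thus a description and no support for the differences. Counts of genes called stayed within 1.5 times in 121 of 168 cases, and counts of Polycomb list genes in 145 of 168. The cause of the changes below was not tested. Fits with fewer libraries or groups also have fewer degrees of freedom, and the part of that was not tested either.

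The grouping of the 240 min libraries by treatment label changed most. Genes called for refed against fasted at 30, 60, 120 and 240 min became 103, 901, 768 and 0 (from 260, 1754, 2243 and 3879), with list genes 5, 4 and 0 at the last 3 times (from 9, 10 and 15). Refed against caged food became 4, 908, 376 and 1 (from 44, 1738, 1797 and 4303), with list genes 4, 4 and 0 (from 10, 9 and 17). Caged food against fasted became 1, 3, 0 and 1 (from 2, 35, 6 and 0). At 240 min Cbx2 became -0.43 (refed against fasted), -0.21 (caged food against fasted, from 0.23) and -0.22 (refed against caged food). Cbx7 became -0.89, -0.40 (from 0.09) and -0.48, and Cbx6 -0.20 for refed against caged food. Without both libraries of conflicting labels, 20 genes were called for caged food 60 min against fasted.

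For caged food 60 min against fasted, 14 genes were called without the filter, 19 with quantile normalisation, 20 with the replicate block, 0 in a fit of the 2 groups and 13 without the 4 libraries known to stand apart (refed 30 min and caged food 30 min replicate 1, caged food 60 min replicate 2, caged food 120 min replicate 3). Without the filter, caged food 240 min against fasted had 1 gene and refed against caged food at 120 min 5 list genes. In fits of the 2 groups alone, refed 30 min against fasted had 392 genes (3 in the list), caged food against fasted 1 at 30 min and 0 at 120 min. Such fits of refed against caged food gave 20 genes at 30 min, 478 at 60 min (3 in the list) and 5 list genes at 120 min. Without the 4 libraries, caged food against fasted had 1 gene at 30 min and 0 at 120 min, and the refed and caged food livers of 30 min differed in 20. Cbx6 then stood at -0.042 for caged food 30 min against fasted and -0.067 for refed against caged food at 30 min, and Cbx8 at 0.26 for caged food 60 min against fasted and -0.14 for refed against caged food at 60 min.

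With each library left out in turn, genes called ranged from 89 to 200 for refed 30 min against fasted (list 0 to 1), 1132 to 1556 at 60 min, 2 to 5 for caged food 30 min, 2 to 34 at 60 min, 0 to 9 at 120 min, 8 to 31 for refed against caged food at 30 min and 1112 to 1504 at 120 min (list 4 to 7). List genes called for refed against fasted ranged from 5 to 9 at 120 min and 8 to 12 at 240 min. Libraries whose loss moved a count over 1.5 times were fasted replicates 1 to 3, refed 30 min replicates 1 to 3, refed 120 min replicates 2 and 3, refed 240 min replicate 1, and all caged food libraries at 30, 60 and 120 min. Cbx6 ranged from -0.042 to 0.26 (caged food 30 min against fasted) and -0.40 to -0.10 (refed against caged food at 30 min), and Cbx8 from -0.11 to 0.26 and -0.14 to 0.23 (the same comparisons at 60 min).

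Same-numbered libraries of different groups did not deviate together (mean correlation -0.00944 over 108 pairs, range -0.227 to 0.231), and 8 of 27 libraries were closest to their own number. The replicate block changed no count by over 1.5 times other than the 20 above.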
